A study of Capra hircus with 6 samples.

Results

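Sense overlapping and intronic circRNAs are the 834 circular RNAs, of 3503 listed, that the authors' table places in those classes by their position on a goat gene: 643 were called sense overlapping and 191 intronic. The classes were taken as the table gives them, with no use of read counts. The cells were goat (Capra hircus) fetal fibroblasts, with an age of 50 days in the labels. They were grown with GO-AgNPs (silver nanoparticles combined with graphene oxide) at 0.5 µg/mL for 10 weeks (3 libraries, called treated), or at 0 µg/mL for 10 weeks (3 libraries, called control). Cells of both groups had the same medium with serum and were passaged every few days, and ribosomal RNA was removed from total RNA before stranded sequencing. The labels do not state whether replicates are separate cultures or fetuses, so the p-values measure only the spread between these libraries.

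A circRNA forms when the spliceosome joins a downstream donor to an upstream acceptor, and the closed loop that results has no free ends for exonucleases to attack. Most well-known loops hold complete exons. An intronic circRNA lies within an intron; the best studied ones are lariats that escaped debranching and that stay in the nucleus near their parent gene. The name sense overlapping is commonly given to a loop on the strand of a gene whose ends do not match annotated exons or a single intron. A loop is measured by the reads that cross its junction, here called junction reads, which carry no molecular identifiers. The roles of genes given here are those known from human and mouse cells.

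The classes differed first in size. The genomic span, the distance between the ends of a loop, had a median of 9314 nt in sense overlapping circRNAs and of 205 nt in intronic ones. The quartiles of the sense overlapping spans were 1997 and 24194 nt, and those of the intronic spans 166 and 505 nt. A span of up to 500 nt was found for 84 sense overlapping circRNAs (13.1%) and for 143 intronic ones (74.9%). At the other end, 191 sense overlapping circRNAs (29.7%) and 3 intronic ones spanned more than 20000 nt. The table's predicted length equals the span for every member of both classes, so it counts any intron inside the loop. For comparison, exonic circRNAs had a median span of 9427 nt, close to that of the sense overlapping class, and a median predicted length of 558 nt.

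**Figure D1:**
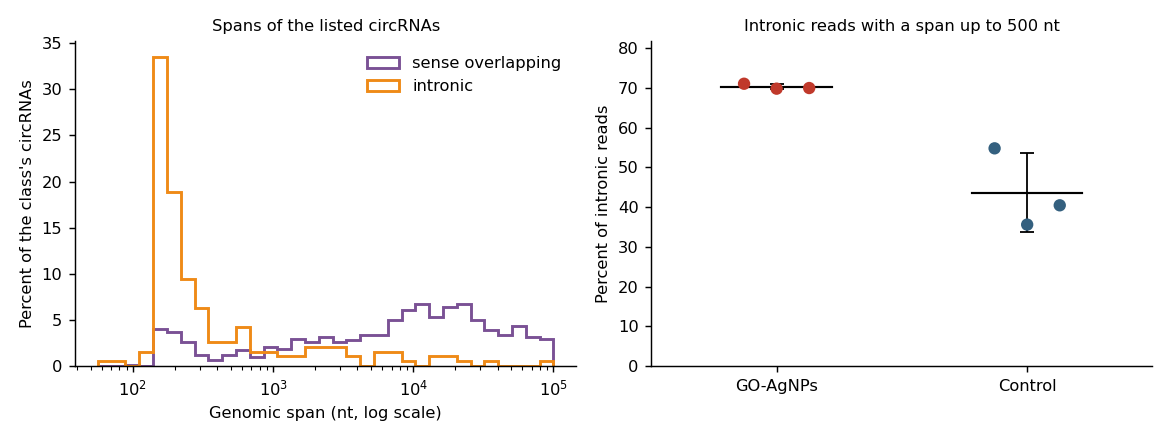
Left, the distribution of genomic spans (nt, log scale) as a percentage of the 643 sense overlapping and the 191 intronic circRNAs; the intronic class peaks near its median of 205 nt and the sense overlapping class is broad around 9314 nt. Right, the percentage of each library's intronic junction reads in circRNAs of up to 500 nt (points, libraries; lines and bars, mean and SD of 3 libraries); the treated libraries sit at 71.1, 69.8 and 70.0%, above all 3 controls.

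The classes also differed in how they lay beside other loops. A start or an end was shared with an exonic circRNA by 73 sense overlapping circRNAs (11.4%) and by 0 intronic ones. The host gene also gave an exonic circRNA for 214 sense overlapping (33.3%) and for 60 intronic circRNAs (31.4%). Within the class, 78 sense overlapping and 9 intronic circRNAs shared a start or an end with another member. The sense overlapping circRNAs came from 560 host genes, of which 497 gave 1 member and 11 gave 3 or more. The intronic circRNAs came from 165 hosts, of which 157 gave 1 member. In all, 706 genes hosted either class and 19 hosted both. Members that share a host, a start or an end are not independent of each other.

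Both classes had fewer reads in treated cells. Sense overlapping circRNAs had 340, 293 and 327 junction reads in treated libraries, against 1028, 1317 and 887 in controls. Intronic circRNAs had 83, 63 and 70 junction reads in treated libraries, against 166, 320 and 168 in controls. No treated library reached the lowest control in either class. Summed over libraries, treated reads were 0.297 times the control reads in the sense overlapping class, 0.330 times in the intronic class and 0.225 times in the exonic class. All circRNAs together had 1412, 1289 and 1586 junction reads in treated libraries, against 5597, 6944 and 4807 in controls. Gene-level reads in the deposited gene table ran from 155452 to 218493 per treated library and from 203786 to 245958 per control library. These do not hold every read of a gene, since some loops had more junction reads than their host had gene reads. Whether they cover all genes could not be settled. The total number of sequenced reads is not given in the sources used here, and in bulk RNA fewer cells of a type and less RNA per cell cannot be told apart.

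As shares of each library's junction reads, both classes had a higher mean in treated cells. The sense overlapping share was 24.1, 22.7 and 20.6% in treated libraries, against 18.4, 19.0 and 18.5% in controls. The means were 22.5 ± 1.74% and 18.6 ± 0.324% (SD, n = 3 each) and the groups did not overlap, with an exact two-sided permutation p of 0.1, the smallest that 3 against 3 libraries allow. The intronic share was 5.88, 4.89 and 4.41% in treated libraries, against 2.97, 4.61 and 3.50% in controls. Its means were 5.06 ± 0.747% and 3.69 ± 0.838% (SD, n = 3 each), the groups overlapped, and the exact permutation p was 0.2. The overlap came from control replicate 2, in which 96 reads fell on 1 intronic circRNA of C1R that no other library contained. Without the circRNAs of C1R the intronic share differed by 1.82 percentage points with an exact permutation p of 0.1, and without control replicate 2 by 1.83 points.

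**Figure D2:**
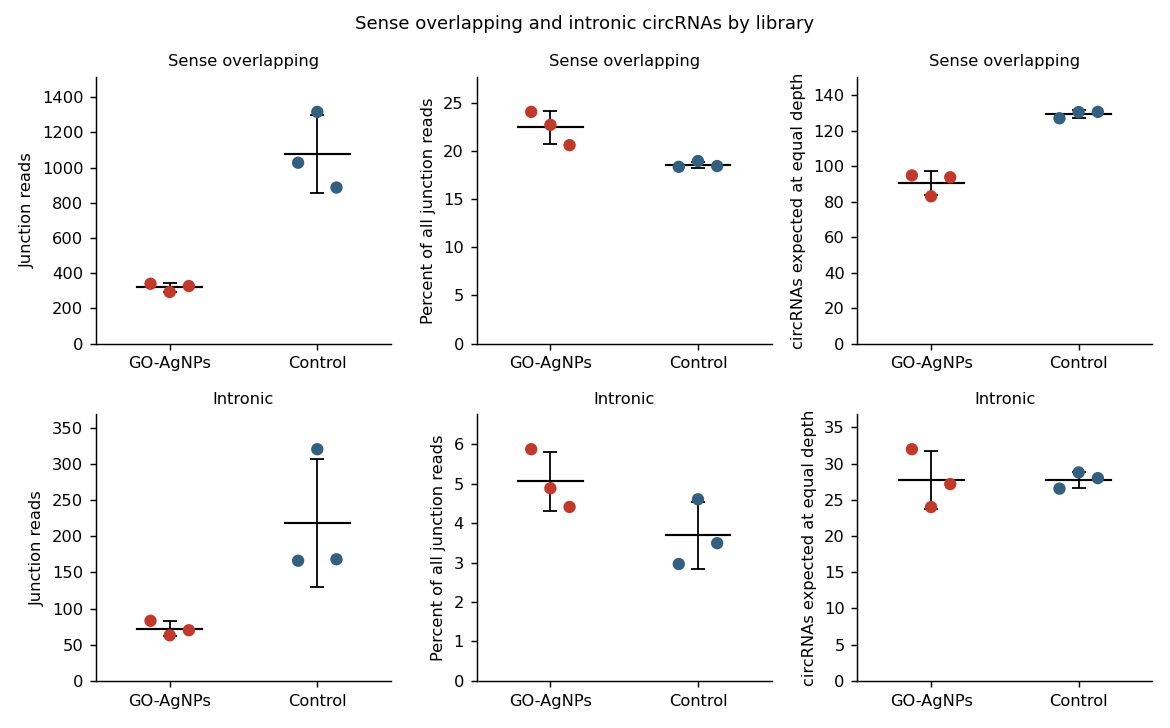
Junction reads, percentage of all junction reads of the library, and number of circRNAs expected at 1289 drawn reads, for sense overlapping (top) and intronic circRNAs (bottom); points are libraries, lines and bars the mean and SD of 3. Treated reads lie below controls in both classes, while the sense overlapping share lies above and the expected number of sense overlapping circRNAs below.

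The contrast between the classes was read from the ratio of their reads. Intronic reads per 100 sense overlapping reads were 24.4, 21.5 and 21.4 in treated libraries, against 16.2, 24.3 and 18.9 in controls. The means of 22.4 ± 1.71 and 19.8 ± 4.14 (SD, n = 3 each) differed by less than the spread of the controls, with an exact permutation p of 0.4. Without control replicate 2 the difference was 4.90 instead of 2.64, and no p of these few libraries could reach 0.05.

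Far fewer different circRNAs were seen in treated cells. Sense overlapping circRNAs numbered 99, 83 and 103 in treated libraries, against 311, 346 and 291 in controls. Intronic circRNAs numbered 34, 24 and 30 in treated libraries, against 78, 90 and 67 in controls. Each detected sense overlapping circRNA had on average 3.38 ± 0.184 reads in treated libraries and 3.39 ± 0.386 reads in controls (SD, n = 3 each). Each detected intronic circRNA had 2.47 ± 0.147 reads in treated libraries and 2.73 ± 0.739 reads in controls. 

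Because a deeper library shows more loops, the numbers were also computed for 1289 junction reads drawn from every library, the total of the shallowest one. At that depth 94.8, 83.0 and 93.8 sense overlapping circRNAs were expected in treated libraries, against 127.0, 130.5 and 130.6 in controls. The means were 90.5 ± 6.53 and 129.3 ± 2.06 (SD, n = 3 each), with no overlap and an exact permutation p of 0.1. Intronic circRNAs numbered 32.0, 24.0 and 27.2 in treated libraries, against 26.5, 28.8 and 28.0 in controls, and the means of 27.7 ± 4.02 and 27.8 ± 1.14 differed by less than either spread (exact permutation p = 1). For every 100 sense overlapping circRNAs there were 33.7, 28.9 and 29.0 intronic ones in treated libraries, against 20.9, 22.1 and 21.4 in controls at this depth. These ratios averaged 30.6 ± 2.76 and 21.5 ± 0.579 (SD, n = 3 each) and did not overlap (exact permutation p = 0.1). This ratio was not among the planned measures.

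The expected numbers assume reads that are drawn independently, and these were not. Among circRNAs with 2 or more reads in a library, 83.9 ± 0.629% of the counts were even numbers in treated libraries and 78.6 ± 3.02% in controls (SD, n = 3 each), so junction reads often came in pairs. With every count halved and rounded up, an alternative chosen after seeing the data, the sense overlapping means were 86.9 in treated libraries and 94.7 in controls, a difference of -7.77 instead of -38.8. The depth drawn was then the lowest total of the halved counts, below 1289, so the 2 differences are at unlike depths. Without halving, 700 drawn reads gave 67.4, 62.4 and 66.7 in treated libraries, against 78.0, 81.6 and 80.8 in controls. How much of the change came from depth was not tested. With halved counts the intronic means were 26.7 and 21.9, a difference of 4.83 with no overlap. The unplanned ratio of the classes moved least, with 30.7 intronic per 100 sense overlapping circRNAs in treated libraries and 23.1 in controls.

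**Figure D3:**
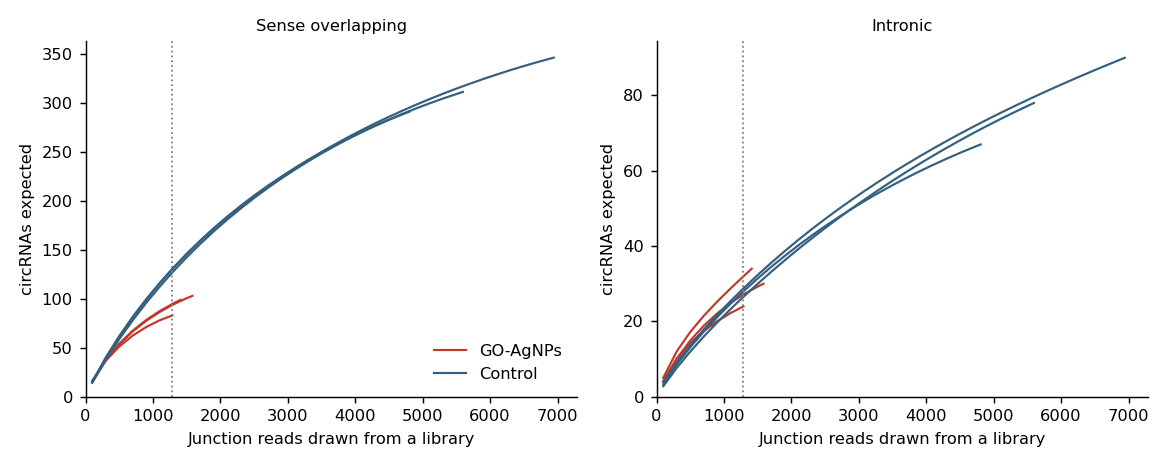
Number of circRNAs of a class expected (y axis) when the stated number of junction reads (x axis) is drawn from a library; each line is 1 library and the dotted line marks 1289 reads. The treated sense overlapping lines (left) lie above all 3 controls at 100 drawn reads and below them from 300 reads on, whereas at 1289 reads the intronic lines (right) of the groups overlap.

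The lists of loops seen in each group had little in common. Of the sense overlapping class, 170 circRNAs had a read in treated cells and 519 in controls, and 46 had reads in both, which is 27.1% of the treated list and 8.86% of the control list. Of the intronic class, 55 had a read in treated cells and 141 in controls, and 5 had reads in both, or 9.09% and 3.55% of the lists. In the exonic class the same shares were 34.3% and 10.4%. Most of these lists were of very rare loops: 288 sense overlapping circRNAs (44.8%) and 108 intronic ones (56.5%) had 1 or 2 reads in all 6 libraries together. Even among replicates few loops recurred, since 25 sense overlapping circRNAs were found in all 3 treated libraries and 115 in all 3 controls, and 7 and 20 intronic ones.

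A total of 7 sense overlapping circRNAs and 1 intronic circRNA had reads in all 6 libraries. Besides 4 loops described below and ZEB1, the sense overlapping ones were hosted by SIMC1 and HUWE1, named here after their values were seen. HUWE1, a large ubiquitin ligase, had 3, 2 and 3 reads in treated libraries, against 2, 3 and 5 in controls. SIMC1, a protein that binds SUMO, had 5, 1 and 3 reads in treated libraries, against 4, 8 and 6 in controls.

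At the other extreme, 5 sense overlapping circRNAs had at least 10 reads in treated cells and none in controls, and 26 had at least 10 reads in controls and none in treated cells. That is 0.778% and 4.04% of the class, against 0.914% and 5.42% of all circRNAs listed. In the intronic class these numbers were 3 and 3, or 1.57% each, and in the exonic class 16 and 148, or 0.747% and 6.91%. The shares of the sense overlapping class are near those of all circRNAs, and 3 intronic loops are too few to set apart. The controls had more junction reads in all, so a control-only loop could reach 10 reads more easily than a treated-only one.

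Short intronic loops had fewer reads in treated libraries, but took a larger share of the reads there. Intronic circRNAs of up to 500 nt had 59, 44 and 49 reads in treated libraries, against 91, 114 and 68 in controls. That was 71.1, 69.8 and 70.0% of the intronic reads in treated libraries, against 54.8, 35.6 and 40.5% in controls. Of all junction reads these short loops took 3.56 ± 0.559% in treated libraries and 1.56 ± 0.127% in controls (SD, n = 3 each), with no overlap and an exact permutation p of 0.1. Leaving out AHNAK and PIK3R1, the hosts with the most members and the most treated reads, gave 2.46 ± 0.332% in treated libraries and 1.33 ± 0.220% in controls, again without overlap (exact permutation p = 0.1).

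The 2 most read intronic circRNAs, of OAS1 and C1R, were both long and both absent from treated libraries. They took 18.1, 42.5 and 18.5% of the intronic reads of the controls. The read-weighted median span of the intronic class was accordingly 218 nt in every treated library, the span of a single PIK3R1 loop, against 346.5, 7240 and 2239 nt in controls. In the sense overlapping class that median was 18336 nt in 2 treated libraries and 16820 nt in the other, against 18336 nt in all 3 controls. Loops of over 20000 nt took 44.7 ± 0.587% of sense overlapping reads in treated libraries and 44.8 ± 2.38% in controls (SD, n = 3 each).

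Single circRNAs were tested with edgeR over the whole circRNA table. A circRNA was tested when at least 3 libraries reached a depth-scaled minimum, which came to 5 reads in a treated library and to 18, 22 and 16 reads in the controls. That left 22 circRNAs of 3503, among them 6 sense overlapping and 3 intronic ones. Of the 22, 15 passed an adjusted p of 0.05 (68.2%), with 10 higher in treated cells (45.5%) and 5 lower (22.7%). Since a loop could enter on fewer treated than control reads, and since most that entered were high in one group, these counts say nothing about the 825 members left untested. Of the 9 members, 6 met the minimum in all 3 treated libraries but not in all 3 controls (KANSL1, ENSCHIG00000007336, MGA, ENSCHIG00000025826, PIK3R1 and ZEB1). Another 1 met it in the controls only (OAS1) and 2 in both groups (ENSCHIG00000011093 and ENSCHIG00000023592). The ZEB1 loop also reached the minimum in control replicates 2 and 3, with 23 and 19 reads. A loop that entered through 1 group was in part chosen for being high there, so its direction and p-value describe it and are no independent support, and the same holds for the count of calls in each direction. A higher call is relative to the TMM-scaled junction reads of the library, not to the number of cells. The median log2 fold change of the 22 was 0.79 with that scaling, 1.30 with none and 0.06 with the scaling factors of the gene table.

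**Figure D4:**
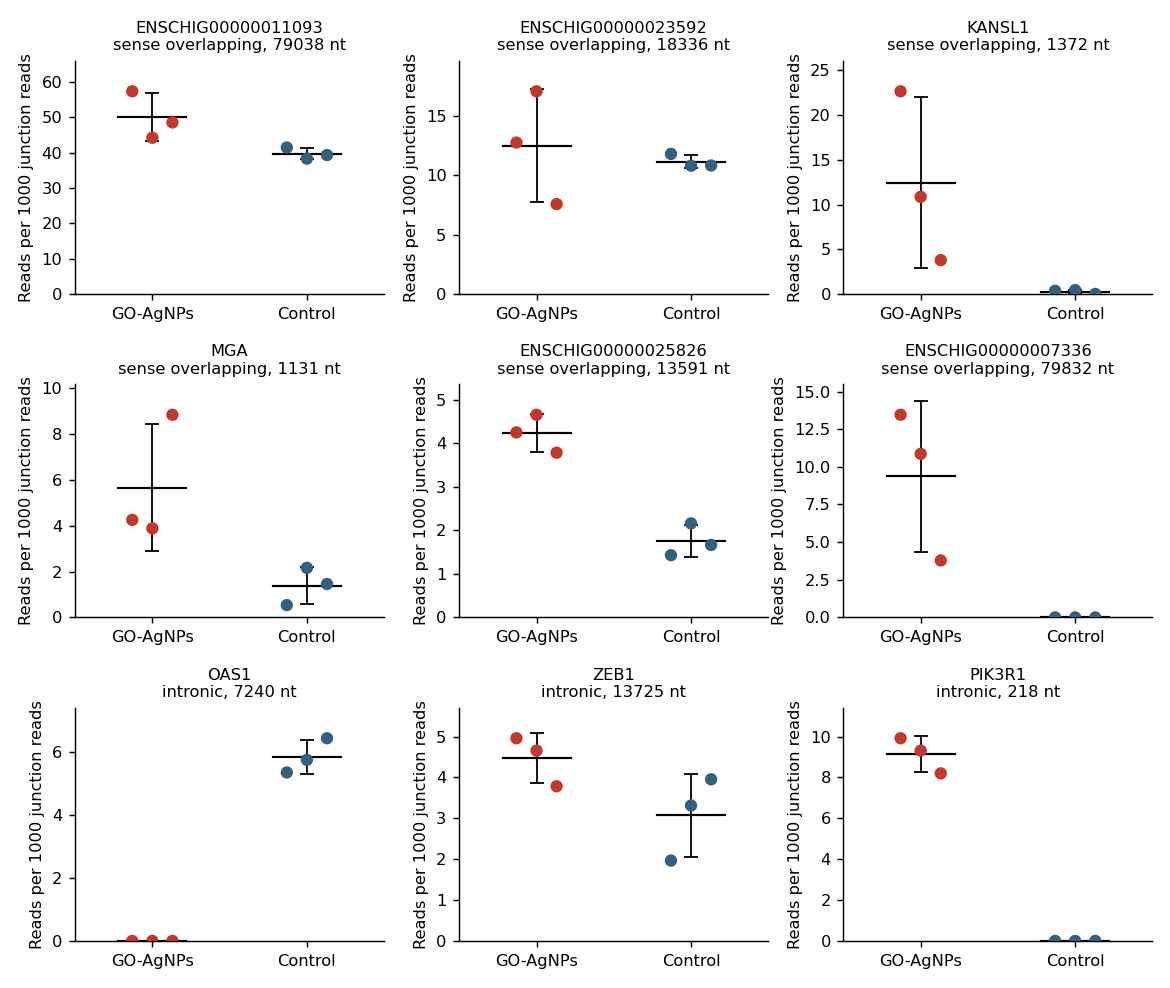
Reads per 1000 junction reads of the library for the 9 members that were tested, with the treated libraries on the left of each panel (points, libraries; lines and bars, mean and SD of 3). The loops of PIK3R1 and ENSCHIG00000007336 are at 0 in all 3 controls and the OAS1 loop is at 0 in all 3 treated libraries.

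Of the 6 sense overlapping circRNAs tested, 3 were called higher and 0 lower, with 0 lower also at an unadjusted edgeR p of 0.05 and in the DESeq2 test. All 3 entered the test through the treated libraries, so their direction is no independent support. KANSL1, the scaffold of a histone acetyltransferase complex, hosted a loop of 1372 nt at chr19:45767696-45769067 (minus strand; the build is not given in the sources used here). It had 32, 14 and 6 reads in treated libraries, against 2, 3 and 0 in controls. The treated libraries differ much among themselves, yet each one lies above every control. The log2 fold change was 4.74 ± 0.91 (SE), with an edgeR adjusted p of 0.00422. The other circRNAs of KANSL1, 3 exonic ones, had 0 treated and 17 control reads, and the gene itself had 0, 1 and 0 reads in treated libraries, against 0, 6 and 3 in controls. In treated libraries these gene reads are fewer than the junction reads of the loop, so they do not hold every read of the gene.

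The gene ENSCHIG00000007336, known here by its identifier only, gave 2 sense overlapping circRNAs that share a start at position 2878853 of chromosome 20. The longer one, of 79832 nt (chr20:2878853-2958684, plus strand), had 19, 14 and 6 reads in treated libraries, against 0 in every control. The shorter one, of 24573 nt, ended at position 2903425 and had 0 reads in every treated library, against 4, 8 and 3 in controls. The reads seen in each group thus had different far ends from the same start. The shorter loop had too few reads to be tested. Treated libraries held fewer junction reads in all, so 0 treated reads do not show that its far end was unused there. The longer loop was 36.8-fold higher in treated cells when the controls are set to 3 reads in all (52.6-fold without scaling), with an edgeR adjusted p of 0.00422. Paired reads would lower these bounds. The gene's 3 exonic circRNAs, 2 of which end where the shorter loop ends, and that loop together had 0 treated and 27 control reads.

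MGA, a transcription factor that pairs with MAX, hosted a loop of 1131 nt (chr10:65986381-65987511, minus strand) with 6, 5 and 14 reads in treated libraries, against 3, 15 and 7 in controls. The raw counts of the groups overlap, whereas per 1000 junction reads every treated library lies above every control. The log2 fold change was 1.49 ± 0.53 (SE), with an edgeR adjusted p of 0.0475. This call did not hold with DESeq2 size factors (adjusted p = 0.0754), the gene table's scaling factors (0.248) or no count filter (0.324), in the DESeq2 test (0.051), or without treated replicate 2 (0.0785) or 3 (0.394).

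The most read member of all was hosted by ENSCHIG00000011093, also without a name, and spanned 79038 nt (chr7:67276577-67355614, minus strand). It had 81, 57 and 77 reads in treated libraries, against 232, 266 and 189 in controls. It made up 50.0 ± 6.70 of 1000 junction reads in treated libraries and 39.7 ± 1.61 in controls (SD, n = 3 each). The log2 fold change was -0.19 ± 0.16 (SE) with an edgeR adjusted p of 0.311. Its sign depended on the scaling: it was 0.34 with no scaling (edgeR adjusted p = 0.0235) and -0.90 with the gene table's factors (0.000202).

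The next most read loop came from ENSCHIG00000023592 and spanned 18336 nt (chr3:86830369-86848704, plus strand). It had 18, 22 and 12 reads in treated libraries, against 66, 75 and 52 in controls, with a log2 fold change of -0.39 ± 0.29 (SE) and an edgeR adjusted p of 0.27. With the gene table's factors it was -1.12 and passed (edgeR adjusted p = 0.00315). Another loop of the same gene, of 9830 nt, had 0 reads in treated libraries, against 0, 11 and 6 in controls.

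The loop of ENSCHIG00000025826, of 13591 nt, had 6, 6 and 6 reads in treated libraries, against 8, 15 and 8 in controls, with a log2 fold change of 0.71 ± 0.20 (SE) and an edgeR adjusted p of 0.142. Without scaling it passed as higher, at 1.22 (edgeR adjusted p = 0.00955).

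Of the 3 intronic circRNAs tested, 1 was called higher, 1 lower and 1 neither. PIK3R1, the main regulatory subunit of phosphoinositide 3-kinase, hosted a short loop of 218 nt (chr20:11474578-11474795, minus strand). It had 14, 12 and 13 reads in treated libraries, against 0 in every control. It was 36.8-fold higher in treated cells against 3 reads in all controls (52.6-fold without scaling), with an edgeR adjusted p of 0.000178. Paired reads would lower these bounds. The PIK3R1 gene itself had 1, 7 and 1 reads in treated libraries, against 17, 21 and 2 in controls, too few for its own test. The gene also hosted a sense overlapping loop, with 0 treated reads and 1 control read.

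OAS1, an interferon-induced enzyme that senses double-stranded RNA, hosted 3 intronic circRNAs. The main one spanned 7240 nt (chr17:9759064-9766303, plus strand) and had 0 reads in every treated library, against 30, 40 and 31 in controls. It was 11.9-fold lower in treated cells when those are set to 3 reads in all (8.32-fold without scaling), with an edgeR adjusted p of 0.000734. Paired reads would lower these bounds. The other 2, of 7203 and 5689 nt, each share a start or an end with the main one and had 0 treated and 11 control reads together. The reads of the OAS1 gene went the other way, with 25, 23 and 33 in treated libraries, against 7, 12 and 8 in controls, a log2 fold change of 2.34 ± 0.42 (SE, edgeR adjusted p = 9.18e-05). Cattle, a related species, carry several similar OAS1 copies, and how reads of such copies were counted is not given in the sources used here. With any 1 control library left out, or with halved counts, the loop no longer met the filter and was not tested.

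ZEB1, a transcription factor of epithelial to mesenchymal transition, hosted a loop of each class, and the 2 share their end at position 33272240 of chromosome 13. The intronic one, of 13725 nt, had 7, 6 and 6 reads in treated libraries, against 11, 23 and 19 in controls (log2 fold change 0.02 ± 0.26 SE, edgeR adjusted p = 0.959). The sense overlapping one, of 93141 nt, had 3, 10 and 4 reads in treated libraries, against 2, 3 and 6 in controls. The 4 exonic circRNAs of ZEB1 had 0 treated and 27 control reads, most of them in 1 loop with 7, 10 and 5 control reads.

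C1R, a protease of the complement cascade, gave a loop of each class that depended on the library. The sense overlapping one, of 40994 nt, had 3, 4 and 0 reads in treated libraries, against 26, 33 and 0 in controls. Control replicate 3 had no read of it, although the other controls were both high. The intronic one, of 36159 nt, had 0 reads in treated libraries, against 0, 96 and 0 in controls, so that its whole signal came from control replicate 2. The C1R gene had 1, 1 and 0 reads in treated libraries, against 6, 4 and 4 in controls, and does not stand out in that library.

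Other well-read loops were missing from some treated libraries and present in others. INSR, the insulin receptor gene, hosted a sense overlapping loop of 552 nt with 4, 0 and 4 reads in treated libraries, against 15, 19 and 10 in controls. The loop of ENSCHIG00000006239, of 23847 nt, had 0, 8 and 0 reads in treated libraries, against 17, 14 and 15 in controls. DHRSX, an oxidoreductase gene on an unplaced scaffold, hosted an intronic loop of 2753 nt with 6, 6 and 0 reads in treated libraries, against 11, 2 and 8 in controls. Most of these counts are even numbers, as in the libraries at large.

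Among sense overlapping loops seen in treated cells only, ENSCHIG00000007336 came first. ZC3H8, a zinc finger protein of a complex that transcribes small nuclear RNA genes, hosted the next, with 4, 6 and 6 treated reads. A loop of ENSCHIG00000015861 had 4, 6 and 2 treated reads, while another sense overlapping loop of that gene had 1, 0 and 0 reads in treated libraries, against 4, 9 and 0 in controls. ADNP2, a zinc finger homeobox gene, had 0, 5 and 6 treated reads, and EPRS1, a transfer RNA synthetase, had 0, 2 and 8. The first 3 of these hosts had treated reads in every library, whereas ADNP2 and EPRS1 lacked them in treated replicate 1.

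The leading sense overlapping loops seen in controls only were hosted by MORC3, a nuclear ATPase, with 7, 15 and 1 control reads, and by MGAT5, which branches the sugar chains of glycoproteins, with 5, 10 and 8. A loop of ENSCHIG00000013174 followed with 6, 7 and 5 control reads. It is the one among these whose gene was tested: its gene reads were 20, 13 and 11 in treated libraries, against 49, 71 and 50 in controls (log2 fold change -1.17 ± 0.34 SE, edgeR adjusted p = 0.00626). GFM2, a factor that recycles mitochondrial ribosomes, had 4, 11 and 3 control reads. None of these 4 loops was tested, as no group reached the count filter in all of its libraries.

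Among intronic loops seen in treated cells only, the most read after PIK3R1 was one of 148 nt in PDE5A, the phosphodiesterase that breaks down cyclic GMP, with 10, 0 and 5 treated reads. The PDE5A gene fell, with 4, 1 and 0 reads in treated libraries, against 35, 44 and 43 in controls (log2 fold change -3.78 ± 0.62 SE, edgeR adjusted p = 3.2e-05). Of its 3 exonic circRNAs, 1 had 5 reads in each treated library and 0 in controls, and the other 2 had 0 treated and 11 control reads. MBD3, a subunit of a nucleosome remodelling complex, hosted a loop of 290 nt with 2, 6 and 2 treated reads. FOXN3, a forkhead repressor, had 4, 2 and 0 treated reads in a loop of 169 nt, and ARHGAP10, a GTPase-activating protein, had 0, 4 and 2 in one of 158 nt. Other intronic loops had 6 treated reads as well, and treated-only loops also included long ones, up to 90176 nt in span.

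Besides OAS1 and C1R, the leading intronic loops seen in controls only had low counts. VIPAS39, a vesicle trafficking protein, hosted a loop of 1045 nt with 0, 5 and 6 control reads. NR6A1, an orphan nuclear receptor, hosted one of 207 nt with 1, 6 and 2 control reads. KIDINS220, a membrane scaffold of neurotrophin signalling, hosted one of 173 nt with 4, 4 and 0 control reads. Counts of this size cannot separate the groups at the depth of the treated libraries.

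Summing a class's reads over each host left 25 sums to test, over all classes, of which 18 passed (72.0%), 10 higher (40.0%) and 8 lower (32.0%). Among the 25 were 6 sense overlapping and 3 intronic sums, of the same hosts as the single loops. KANSL1, MGA and PIK3R1 each have 1 member of the class, so their sums are the same reads as the single loop and add nothing to it. The sum of OAS1 was called lower, with 0 reads in treated libraries, against 30, 46 and 36 in controls (edgeR adjusted p = 1.11e-08). For ENSCHIG00000007336 the sum shrank the difference, since its loops went opposite ways: 19, 14 and 6 reads in treated libraries, against 4, 8 and 3 in controls, a log2 fold change of 2.58 ± 0.45 (SE, edgeR adjusted p = 2.55e-06). The sum of ENSCHIG00000023592 passed as lower, with 19, 22 and 12 reads in treated libraries, against 66, 86 and 58 in controls (log2 fold change -0.75 ± 0.33 SE, edgeR adjusted p = 0.0426). That call was lost without any library but treated replicate 3 (edgeR adjusted p from 0.059 to 0.118), and the sign turned without scaling, to 0.04.

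Hosts with many sense overlapping members mostly reused 1 end. CEMIP, which takes part in breaking down hyaluronan, had 6 members with 0 reads in treated libraries, against 6, 7 and 2 in controls, and 5 of them share a start. Its 6 exonic circRNAs had 1 treated and 62 control reads. ASH1L, a histone methyltransferase, had 5 members with 1, 9 and 6 reads in treated libraries, against 9, 9 and 3 in controls, and 4 share an end. Within ASH1L a loop of 36789 nt had 10 treated and 3 control reads, one of 15088 nt had 6 and 0, and the other 3 had no treated reads and 18 control reads. MBTPS2, a membrane protease that releases SREBP transcription factors, had 4 members on 1 start with 0, 2 and 2 reads in treated libraries, against 3, 2 and 4 in controls; the treated reads all lay in a loop of 1795 nt that no control contained. TTC3, a ubiquitin ligase, also had 4 members on 1 start, with 3, 1 and 3 reads in treated libraries, against 2, 1 and 0 in controls. CEP112, a centrosomal protein, had 5 members on 5 starts with 0 reads in treated libraries, against 10, 2 and 3 in controls.

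The classes were also compared over the hosts that gave both sense overlapping and exonic circRNAs. In these 166 genes, sense overlapping reads were 131, 100 and 101 in treated libraries, against 249, 303 and 211 in controls. Their exonic reads were 90, 81 and 103 in treated libraries, against 571, 670 and 442 in controls. The sense overlapping share of these reads was therefore 59.3, 55.2 and 49.5% in treated libraries, against 30.4, 31.1 and 32.3% in controls. The means of 54.7 ± 4.91% and 31.3 ± 0.980% (SD, n = 3 each) did not overlap (exact permutation p = 0.1). Since hosts entered on these same reads, of either group, the difference describes them and is no independent support. Treated sense overlapping reads came from 59 of the hosts and treated exonic reads from 67, against 132 and 150 in controls. Without the circRNAs of KANSL1, whose loop gave 52 of the 332 treated sense overlapping reads, the difference was 19.3 instead of 23.4 percentage points. Host by host the split was near even: of 97 hosts with reads in both groups, the share was higher in treated cells in 51 and lower in 46.

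AHNAK, which encodes a giant scaffold protein built of tandem repeats, had more intronic members than any other host. Its 18 intronic circRNAs lay within 15425 nt (chr29:41208460-41223884, minus strand) and spanned 140 to 444 nt, with a median of 180.5 nt. They had 5, 2 and 1 reads in treated libraries, against 12, 10 and 16 in controls. Per 1000 junction reads these were 3.54, 1.55 and 0.631 in treated libraries, against 2.14, 1.44 and 3.33 in controls, so the groups overlapped and treated replicate 1 was the highest of all (exact permutation p = 0.8). The locus also had 7 antisense circRNAs, with 2 treated and 25 control reads, and 0 sense overlapping or exonic ones. The reads of the gene itself were 756, 537 and 564 in treated libraries, against 602, 627 and 516 in controls. A single loop held 6 of the 8 treated reads, and no control contained it.

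The spans of the AHNAK loops recurred: 4 members measured 180 nt and 3 measured 222 nt. Of the 18 spans, 14 were divisible by 3 (77.8%), as were 6 of the 7 antisense spans. The share was 29.5% in the other 173 intronic circRNAs, 36.2% in the sense overlapping class and 32.2% in the exonic class. Whether these positions are exonic, intronic or repeated was not tested, since no genome sequence was used here.

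**Figure D5:**
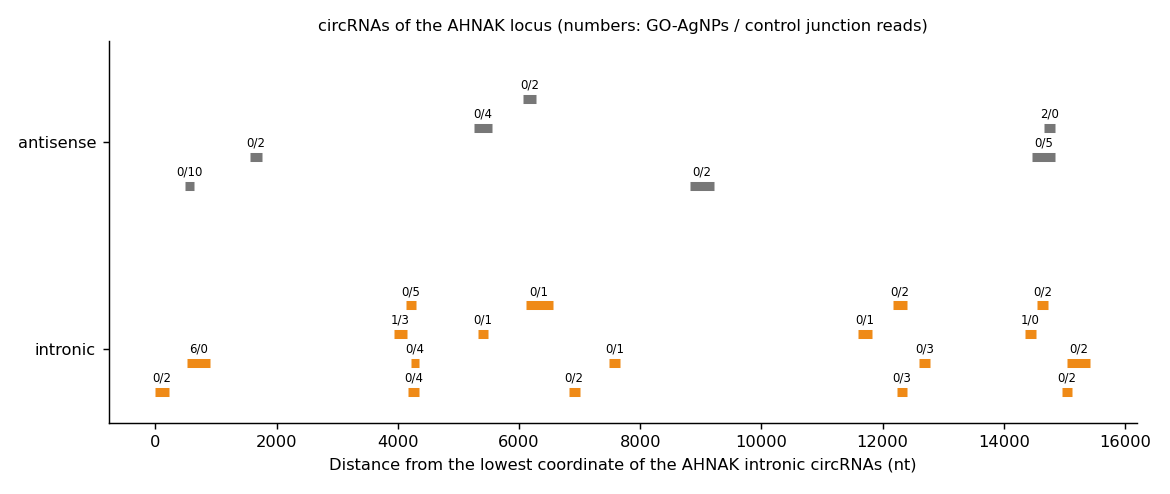
The intronic (bottom) and antisense (top) circRNAs of AHNAK, drawn to scale as bars against the distance in nt from the lowest coordinate of the intronic ones; the numbers give treated and control junction reads. The 18 intronic loops are short and spread over 15425 nt, and 1 of them holds 6 of the 8 treated reads. Vertical offsets within a class only keep the bars apart.

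The remaining intronic hosts with several members had few reads. GPI, a glycolytic isomerase, had 3 short members with 0 reads in treated libraries, against 1, 5 and 2 in controls. FOXN3 had 2 members with 4, 3 and 0 reads in treated libraries, against 0, 3 and 0 in controls. All its control reads were of the loop of 718 nt and came from control replicate 2, and that loop had 1 treated read. DHRSX had 2 members with 6, 6 and 0 reads in treated libraries, against 12, 2 and 8 in controls.

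At the gene level, 455 of the 560 sense overlapping hosts and 145 of the 165 intronic hosts were listed in the deposited gene table. Their median gene read totals over 6 libraries were 16 and 28, against 13 over all 11374 genes. In the edgeR fit of that table, 1108 of 2148 tested genes passed (51.6%), 534 higher in treated cells (24.9%) and 574 lower (26.7%). Of 125 tested sense overlapping hosts, 50 passed as higher and 18 as lower (54.4% together), with a median log2 fold change of 0.47. Of 47 tested intronic hosts, 17 passed as higher and 11 as lower (59.6%), with a median of 0.46. The median of all tested genes was -0.02, and of the 250 tested exonic hosts 0.24. Without scaling the median of all genes was -0.47.

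Genes for circRNA formation and turnover were few in this table: of a list of 30, 22 were listed and 6 tested. Of these, 4 passed as higher, 2 as neither and 0 as lower (0 lower also at an unadjusted edgeR p of 0.05 and in DESeq2), with a median log2 fold change of 1.43. CPSF4, a subunit of the pre-mRNA cleavage and polyadenylation complex, had 28, 15 and 21 reads in treated libraries, against 3, 2 and 0 in controls (log2 fold change 4.33 ± 0.65 SE, edgeR adjusted p = 1.3e-05). PRPF8, a core protein of the spliceosome, and KHSRP, a splicing and decay factor, also passed, at 1.50 (edgeR adjusted p = 0.00922) and 1.37 (0.0417). The KHSRP call was lost under 4 other settings (DESeq2 size factors, no scaling, no filter, DESeq2 test) and without any library but treated replicate 3. The PRPF8 call was lost with no scaling (0.0859), and without treated replicate 1 (0.18) or control replicate 2 (0.0623). QKI, which promotes back-splicing, was too rare to test, with 0, 2 and 0 gene reads in treated libraries, against 7, 8 and 6 in controls. It is named here because it is the one gene of the list that hosted a member, a sense overlapping loop with 0 treated and 7 control reads.

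Of 17 interferon response genes, 5 were tested, with OAS1 higher and 3 lower: MX1, an antiviral GTPase, at a log2 fold change of -3.96 ± 0.59 (SE, edgeR adjusted p = 1.17e-05), IFIH1, a sensor of viral RNA with 0 treated and 51 control reads, and IFIT1, at -1.86 ± 0.59 (edgeR adjusted p = 0.0113). OAS1 was the only host of a member among them. The IFIT1 call was lost without treated replicate 1 (0.053) or control replicate 1 (0.0591). Of 17 genes of phosphoinositide 3-kinase signalling, 4 were tested and 0 passed in edgeR, at an unadjusted p of 0.05 as well as an adjusted one, and 0 in DESeq2. TSC2, an inhibitor of mTOR signalling, was at 0.43 (edgeR adjusted p = 0.308), and AKT1, a kinase of the pathway, at 0.60 (0.327). Besides PIK3R1, PDPK1 hosted an intronic loop of this list, with 1 control read.

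Matrix and adhesion genes, the abundant products of fibroblasts, mostly rose: of 28 listed, 19 were tested, 16 passed as higher and 1 as lower. COL6A2, a chain of type VI collagen, had 532, 398 and 442 reads in treated libraries, against 196, 213 and 184 in controls (log2 fold change 1.97 ± 0.15 SE, edgeR adjusted p = 5.86e-09). The one lower gene was LAMB1, a laminin chain, with 4, 12 and 13 reads in treated libraries, against 44, 40 and 25 in controls (-1.12 ± 0.44, edgeR adjusted p = 0.038), a call lost in DESeq2 (0.0717), with a mean of at least 10 reads as the filter (0.0698), and without treated replicate 1 (0.17) or 2 (0.0534) or control replicate 1 (0.103). Without scaling, 9 passed as higher and 2 as lower. Sense overlapping loops of this list were seen in controls only: 4 members, of COL1A1, COL1A2, ITGB1 and LAMC1, had 0 treated and 20 control reads, too few to test. Intronic loops of COL12A1 and COL5A2 had 2 treated and 2 control reads.

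Of 12 fibroblast markers, 10 were listed, and their summed level was 16216 to 19672 CPM (counts scaled to the library total) in treated libraries, against 14294 to 14624 in controls. Epithelial markers moved with the groups as well, with 2 of 5 listed (KRT8 and KRT19): they summed to 59.5 to 149 CPM in treated libraries, against 0 in every control, and CDH1 and EPCAM were not among the listed genes. Endothelial markers (1 of 5 listed) summed to 0 to 24.9 in treated libraries, against 29.4 to 44.7 in controls. Blood markers (2 of 5) summed to 105 to 249 in treated libraries, against 78.5 to 150 in controls. Skeletal muscle markers (2 of 4) were at 0 in treated libraries, against 4.07 to 24.5 in controls, and the 1 neural marker listed of 4, SOX10, was at 4.58 to 64.3 in treated libraries, against 0 in controls. Their part in the circRNA results was not tested.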

How the data were processed

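The series measured rRNA-depleted total RNA of goat fetal fibroblasts in 6 libraries, 3 treated and 3 control. The circRNA and gene tables were used as deposited by the authors, as raw counts: junction reads per circRNA and reads per gene, per the file headers. The column of predicted lengths, in nt, is another measure deposited by the authors, with 1 value per circRNA. Another 24 per-library columns (values normalized by the authors, and the lncRNA table) were not used. CASAVA 1.8 and BWA are named in the submitters' processing notes, which also name the human build hg19. No source used here gives the goat build, the role of BWA or the circRNA caller.

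Counts were fitted by quasi-likelihood in edgeR 4.0.16 under R 4.3.3, after filterByExpr (minimum count 10) and TMM normalization. Adjusted p-values are Benjamini-Hochberg values over each whole table, with a threshold of 0.05, and an SE is the absolute log2 fold change over the root of the F statistic. DESeq2 1.42.0 was an alternative. The steps were tested on simulated data with known changes. Class values were compared by exact two-sided permutation tests (20 assignments, smallest p 0.1). Expected numbers at equal depth came from the hypergeometric formula, with no random draw. A fold against a group at 0 sets that group to 3 reads in all. It is a bound for independent reads and covers counting error only, so paired reads would lower it.

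Members and gene lists were chosen with earlier results of these data known. The text names every tested member, the 8 most read of a class, up to 5 seen in 1 group only, the 5 hosts with most members, and of each list up to 4 called genes per direction (with none called, the 2 most read); where few are named they are examples of these, and 1 called gene of the formation and turnover list is not reported here. Replicates differed by more than the counting noise of independent reads. The chi-square per degree of freedom was 2.14 to 3.7 for circRNAs, where paired reads raise it, and 2.71 to 8.17 for genes. No library was counted as a duplicate.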

Additional observations from a re-analysis of the deposited data

How the results depend on the processing

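Of 18 class values and counts, recomputed 248 times under other settings, 205 stayed within 1 SD between replicates (values) or 1.5 times (counts). With circRNAs of up to 20000 nt only, the treated minus control difference was 2.27 points for the intronic share, 8.60 for intronic per 100 sense overlapping reads, -24.1 for sense overlapping circRNAs at equal depth and 907 nt for the sense overlapping read-weighted span, which was 337 nt without the most read member. Read counts halved and rounded up, and the removal of C1R, AHNAK or KANSL1, were chosen after seeing the data. Halving gave -7.77 sense overlapping and 4.83 intronic circRNAs at equal depth, and leaving out KANSL1 gave 19.3 points for the share within hosts. In every setting, equal depth was the lowest library total of the reads kept, so it differed between settings.

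Sense overlapping circRNAs called higher numbered 5 with no scaling, 0 with a mean count of at least 10 and 0 with halved counts, where the loops of KANSL1 and ENSCHIG00000007336 were not tested. Those called lower were 2 with the gene table's scaling factors. Host sums of the class called higher numbered 5 with no scaling, 9 with no filter, 1 with a mean of at least 10 and 0 when halved. Host sums called lower numbered 2 with DESeq2 size factors or the gene table's factors, 14 with no filter, and 0 with no scaling, a mean of at least 10 or halving. Intronic circRNAs called higher were 2 with no filter and 0 with a mean of at least 10, and those called lower 0 when halved. Intronic host sums called higher were 3 with no filter and 0 with a mean of at least 10, and those called lower 2 with no filter and 0 when halved. Of the formation and turnover list, 2 were higher with no scaling and 2 lower with no filter. Loops that miss a stricter filter are not tested; the cause of the other changes was not tested.

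The sign turned for ENSCHIG00000011093 with no scaling (0.34, alone and summed) and for its sum with a mean of at least 10 (0.82), and for the sum of ENSCHIG00000023592 with no scaling (0.04) and with a mean of at least 10 (0.53).

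Leaving out 1 library at a time gave differences of 3.08 to 4.81 points for the sense overlapping share, 0.961 to 1.83 for the intronic share, 0.821 to 4.90 for intronic per 100 sense overlapping reads, -41.0 to -38.2 and -2.19 to 1.40 for sense overlapping and intronic circRNAs at equal depth, 21.1 to 26.0 points for the share within hosts, and -758 to 0 nt and -4521.5 to -1074.8 nt for the spans. Calls ranged from 2 to 4 higher and 0 to 2 lower sense overlapping circRNAs, 2 to 3 and 1 to 2 host sums, 1 to 2 higher and 0 to 1 lower intronic circRNAs and the same for their host sums, and 2 to 4 higher and 0 lower list genes. The 0 lower intronic calls came without any 1 control, when the OAS1 loop missed the filter.

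Whether replicate numbers pair the libraries could not be decided from the circRNAs. Over 49 of them, deviations of same-numbered libraries correlated at 0.176, 0.00272 and 0.25, and those of other-numbered libraries at -0.237 to 0.0776. Over 3429 genes the same-numbered values were 0.0144, 0.00699 and -0.00508, and the others ran from -0.0272 to 0.0187. With the number as a replicate block, 3 list genes were called higher instead of 4, the counts of members and host sums were those of the unblocked fit, and the exact sign-flip p of the sense overlapping share was 0.25, the smallest 3 pairs allow.

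Depth limits what can be said of 825 members, which had too few reads to test.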
